A study of Mus musculus with 8 samples.

Results

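The 7 genes described here make, store and break down catecholamines: Th, Ddc and Dbh of synthesis, Slc18a2 of vesicle storage, Phox2a of noradrenergic identity, and Maoa and Maob of breakdown. They were followed through every probe set whose platform annotation names one of them alone, which gave 11 of the 45037 probe sets other than controls, and 7 of the 18193 genes with a probe set of their own. Of the 11, 6 lay above a filter on low signals (a mean of about 333) that kept 27022 probe sets, and the other 5 lay under it: all 3 of Dbh, the one of Phox2a and the dimmer one of Ddc. The genes were chosen by their place in the pathway together with the measured Exp minus Ctrl difference of Maob, which had stood out among the lower signals. Differences of the 7 genes between the groups are therefore given as a description, with no test.

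Total RNA of mouse was measured on 8 Affymetrix arrays, 4 of a group called Exp and 4 of a control group called Ctrl, each numbered 1 to 4. The labels give no genotype, strain, treatment or age for either group, and none that both share. The tissue is named in one field as the trigeminal ganglion, which holds the sensory neurons of the face, and in another as brain and adrenal medulla. Nothing says that each array came from an animal of its own, so the p-values below cover no more than array-to-array spread, possibly technical, and the number of arrays limits their precision. Of all 18193 genes with a probe set of their own, 12762 besides Maob had one above the filter. Among marker lists, 16 of 16 sensory neuron genes with a probe set of their own lay above the filter. So did 15 of 17 sympathetic and chromaffin genes, 3 of 8 genes of the adrenal cortex and 4 of 14 of central neurons and glia. No tissue is read from these counts. The 2 sympathetic and chromaffin genes under the filter in all their probe sets were the factors Hand2 and Gata3, while Chga, a granin of secretory granules, lay above it. Xist, the RNA that silences an X chromosome in females, had signals of 24667 to 27029 by one of its probe sets in Exp 1, Exp 4 and Ctrl 3, and at most 333 in the other 5 arrays.

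Catecholamines are built from tyrosine. Tyrosine hydroxylase (Th) carries out the step that limits the rate, the decarboxylase Ddc forms dopamine, the transporter Slc18a2 loads it into vesicles, and Dbh turns it into noradrenaline there. Phox2a is a homeodomain factor that noradrenergic neurons need. The monoamine oxidases Maoa and Maob sit in the outer mitochondrial membrane and oxidise amines to aldehydes, which aldehyde dehydrogenases then clear. In mouse dorsal root ganglia, Th also marks a class of unmyelinated touch neurons that do not use noradrenaline.

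Promoter windows from 250 bases before to 50 bases after the annotated start were found in RefSeq (GRCm38.p6) for 6 of the 7 genes, all but Maob. The windows of Th and Slc18a2 are shown because these are the entry step of synthesis and the storage step, and because each holds the full cAMP response element TGACGTCA, here in capitals.
Th, chr7:142899946-142900245, minus strand: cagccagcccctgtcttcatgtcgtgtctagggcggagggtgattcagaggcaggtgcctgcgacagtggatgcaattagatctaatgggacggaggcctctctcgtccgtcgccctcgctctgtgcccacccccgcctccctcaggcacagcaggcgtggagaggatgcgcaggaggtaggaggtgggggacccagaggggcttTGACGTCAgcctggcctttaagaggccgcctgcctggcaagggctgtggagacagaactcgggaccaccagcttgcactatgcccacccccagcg
Slc18a2, chr19:59260628-59260927, plus strand: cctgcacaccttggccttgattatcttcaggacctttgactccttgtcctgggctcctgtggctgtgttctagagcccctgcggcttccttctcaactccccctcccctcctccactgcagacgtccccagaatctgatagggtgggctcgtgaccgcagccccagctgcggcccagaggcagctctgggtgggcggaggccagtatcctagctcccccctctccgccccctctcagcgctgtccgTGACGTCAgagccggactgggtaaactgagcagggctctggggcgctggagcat
The element begins 45 bases before the start in Th and 4 bases before it in Slc18a2. Searched on both strands, it occurs in 1.79% of the 32851 promoter windows in the table and in none of the windows of Ddc, Dbh, Maoa or Phox2a. The window of Maoa is shown for the breakdown step, with the GC box core CCGCCC in capitals. This core was found in 35.7% of all windows on either strand. In the window of Maoa 2 matches lie, 1 of them at its very end, after the start. The core also matches in the windows of Th (1 match), Slc18a2 (2) and Phox2a (4), and is not marked in those printed above.
Maoa, chrX:16619448-16619747, plus strand: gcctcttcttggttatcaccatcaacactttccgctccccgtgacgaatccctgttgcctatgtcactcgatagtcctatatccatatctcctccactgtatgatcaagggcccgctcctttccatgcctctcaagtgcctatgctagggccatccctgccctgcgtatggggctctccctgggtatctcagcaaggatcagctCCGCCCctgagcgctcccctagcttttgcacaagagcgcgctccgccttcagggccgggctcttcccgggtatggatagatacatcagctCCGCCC

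The Maob signals of the 2 groups did not overlap, those of Exp being the lower. Its single probe set, 1434354_at, had signals of 686, 714, 689 and 850 in Exp 1 to 4, against 1159, 1047, 1100 and 1043 in Ctrl 1 to 4. All 4 Exp arrays lay below all 4 Ctrl arrays, and Exp 4 came nearest to the Ctrl values. The mean signal was 735 ± 78.0 in Exp and 1087 ± 54.5 in Ctrl (SD, n = 4 each). On the log2(signal + 16) scale after quantile normalization, Exp minus Ctrl was -0.60 (SE 0.10), a fold of 0.660, with means of 9.53 ± 0.13 in Exp and 10.1 ± 0.02 in Ctrl (SD, n = 4 each). Without any 1 array this difference ran from -0.66 (without Exp 4) to -0.56 (without Exp 1). In whole tissue, fewer cells of a type and less RNA per cell cannot be told apart.

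Over all tested probe sets, 1.28% had every Exp array below every Ctrl array. Over both directions, 0.00370% passed limma's test at a 5% false discovery rate, a single probe set that belongs to none of the 7 genes. Since the choice of Maob rests on this contrast, nothing is read from these shares for Maob itself.

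**Figure D1:**
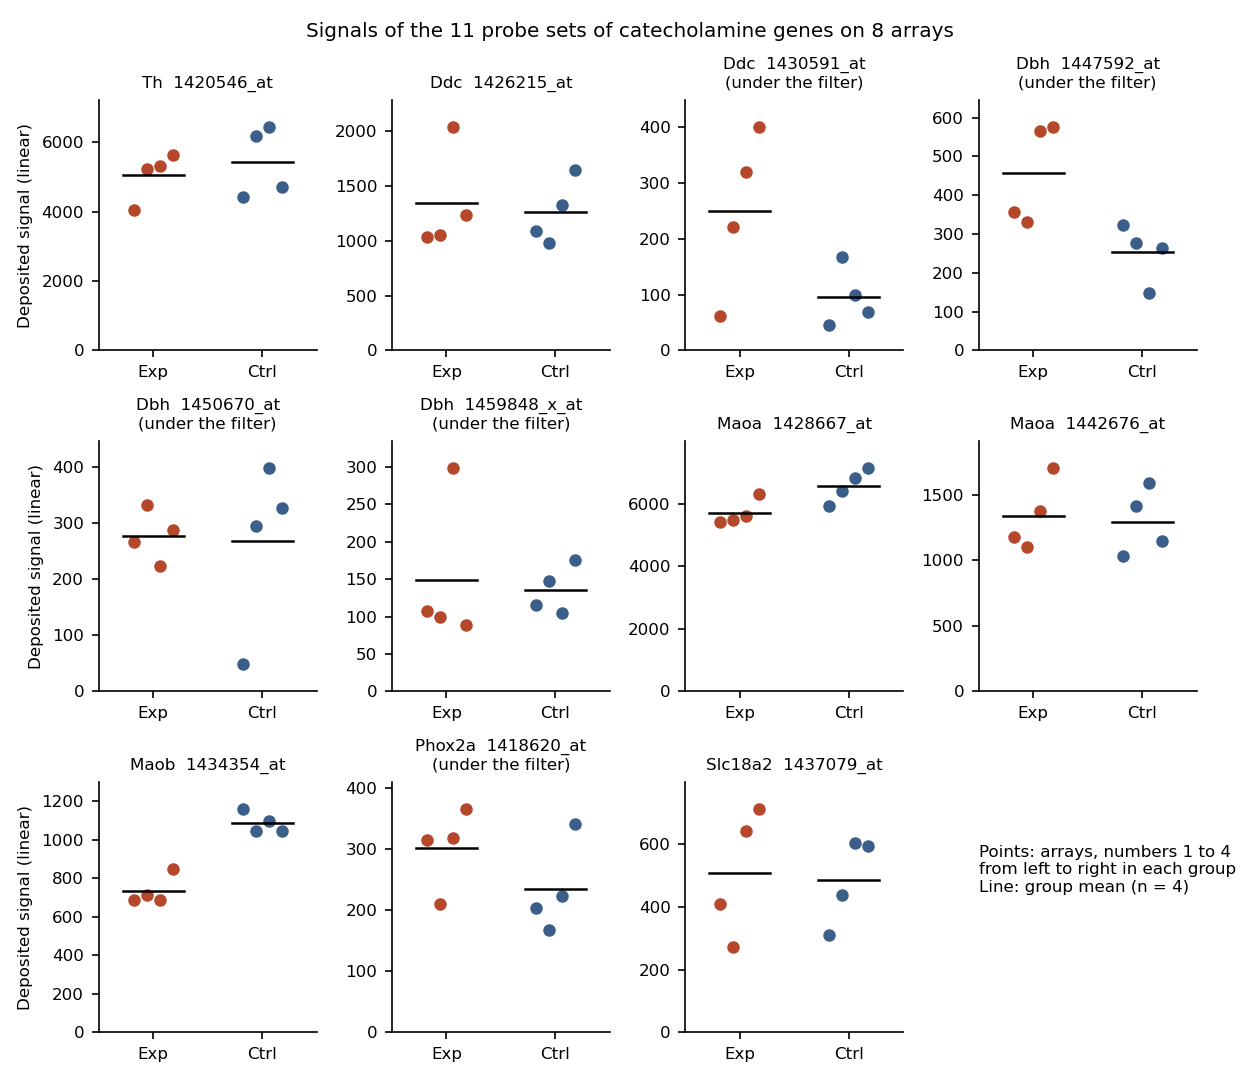
Deposited linear signal (y axis, from 0) of each of the 11 probe sets on the 4 Exp arrays (left, red) and the 4 Ctrl arrays (right, blue), with the group mean as a line. Maob at 686 to 850 in Exp lies below its 1043 to 1159 in Ctrl, while Th, both Maoa probe sets and Slc18a2 overlap.

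Maoa, the partner gene next to Maob on the X chromosome, gave overlapping groups in both probe sets. The brighter one, 1428667_at, had signals of 5429, 5492, 5606 and 6311 in Exp 1 to 4, against 5914, 6392, 6838 and 7140 in Ctrl 1 to 4. Exp 1, Exp 2 and Exp 3 lay below all Ctrl arrays and Exp 4 did not. Its difference was -0.19 (SE 0.11). The other probe set, 1442676_at, had 1180, 1102, 1379 and 1704 in Exp, against 1033, 1413, 1588 and 1150 in Ctrl, a difference of 0.03 (SE 0.19). The Exp and Ctrl values of this probe set were interleaved.

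Since both monoamine oxidase genes are X-linked, they were also compared within the arrays of like Xist signal. Among the 3 arrays high in Xist, Exp minus Ctrl of Maob was -0.58 (2 Exp arrays against 1 Ctrl array). Among the 5 low in Xist it was -0.62 (2 Exp arrays against 3 Ctrl arrays). For the brighter Maoa probe set the values were -0.21 and -0.20. With the Xist signal as a covariate the Maob difference was -0.61 (SE 0.11). The arrays high in Xist hold a single Ctrl array, and these values come from the contrast on which Maob was chosen.

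The genes on either side of the pair were measured in the same fit. Efhc2, the nearest tested gene beyond Maob, differed by -0.08 (SE 0.14), and Cask, a synaptic scaffold gene and the nearest tested on the side of Maoa, by -0.08 (SE 0.15). Of the 10 nearest tested neighbours, 5 on each side, the differences ran from -0.14 for Slc9a7 to 0.28 for AA414768, and 0 passed limma's test (adjusted p = 0.999 for each). Ndp, which encodes norrin and lies directly beyond Maob, had its probe set under the filter, with signals of 242, 287, 225 and 405 in Exp against 502, 296, 365 and 345 in Ctrl. Its groups overlapped through Exp 4, and its difference was -0.44 (SE 0.20). Other listed neighbours under the filter were Dusp21 at -0.84 (SE 0.31), Gpr34 at -0.81 (SE 0.54) and Dipk2b at -0.27 (SE 0.61). Their groups overlapped too, and the range above leaves out all genes under the filter.

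**Figure D2:**
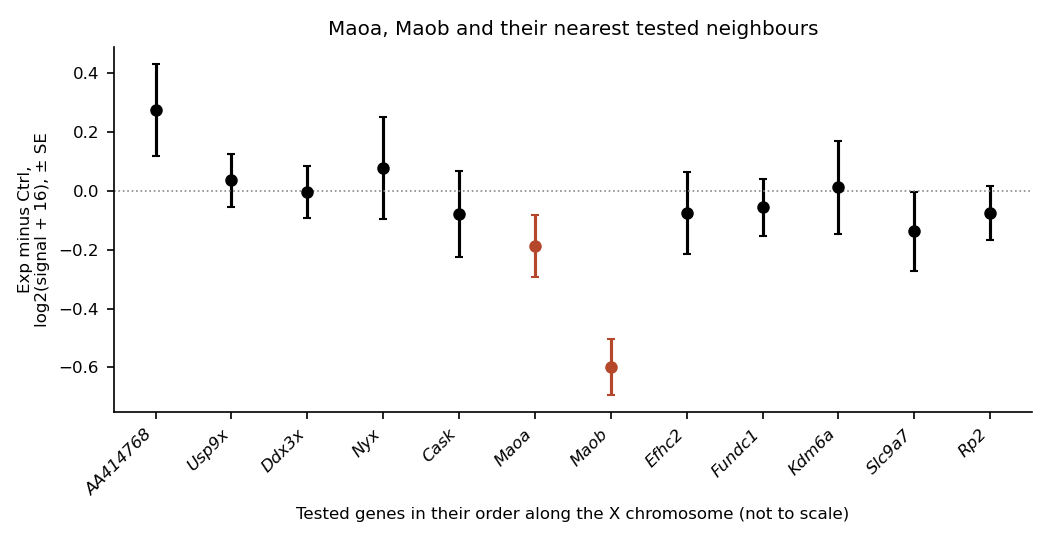
Exp minus Ctrl on the log2(signal + 16) scale (y axis, bars of 1 SE) for Maoa and Maob (red) and the 5 nearest tested genes on each side (black), in their order along the X chromosome and not to scale. Maob stands at -0.60, Maoa at -0.19 and the 10 neighbours between -0.14 and 0.28.

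Of the genes of synthesis, Th and the brighter probe set of Ddc overlapped between the groups. Th had signals of 4044, 5222, 5320 and 5635 in Exp 1 to 4, against 4434, 6187, 6440 and 4713 in Ctrl 1 to 4. Exp 1 was lowest of all 8 arrays, and the other Exp arrays lay within the range of Ctrl. The means were 5055 ± 697 in Exp and 5443 ± 1016 in Ctrl (SD, n = 4 each), a difference of -0.07 on the log2 scale (SE 0.17).

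Ddc, the decarboxylase shared with serotonin synthesis, had 1034, 1050, 2034 and 1235 in Exp against 1091, 982, 1326 and 1643 in Ctrl by probe set 1426215_at. Exp 3 was highest, and the difference was 0.02 (SE 0.26). Its other probe set, 1430591_at, lay under the filter, with 62, 221, 319 and 400 in Exp against 46, 168, 99 and 69 in Ctrl. There the groups overlapped through Exp 1 alone, and the difference was 1.08 with an SE of 0.57. Within groups the deviations of the 2 Ddc probe sets had r = 0.324 (rho = 0.31) over the 8 arrays, so they did not rank the arrays alike.

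Dbh, which makes noradrenaline, lay under the filter in all 3 probe sets, and these disagreed. Probe set 1447592_at had 357.9, 331.4, 564.7 and 575.8 in Exp against 323.2, 275.9, 149.1 and 264.1 in Ctrl, so that the lowest Exp array stood just above the highest Ctrl array. Its difference was 0.77 (SE 0.28), and among the probe sets under the filter 1.51% showed the same order. Its mean log2 level lay only just under the cut. Probe set 1450670_at had 267, 333, 223 and 288 in Exp against 49, 296, 399 and 328 in Ctrl. Here Ctrl 1 alone was far below the rest, and the difference was 0.25 (SE 0.58). Without Ctrl 1 it was -0.39. Probe set 1459848_x_at had 108, 100, 299 and 89 in Exp against 116, 148, 104 and 176 in Ctrl, a difference of -0.07 (SE 0.37), and Exp 3 alone was high. Without Exp 3 it was -0.44 (SE 0.20). Within groups the first of these probe sets deviated against the second (r = -0.456, rho = -0.643) and with the third (r = 0.5, rho = 0.381) over the 8 arrays.

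Slc18a2, the vesicular monoamine transporter, had 410, 272, 644 and 713 in Exp against 312, 439, 605 and 593 in Ctrl. The signals spread widely in both groups, and the difference was -0.03 (SE 0.33). Phox2a lay under the filter, with 314, 211, 318 and 365 in Exp against 204, 167, 224 and 342 in Ctrl. Its groups overlapped, Ctrl 4 lying above 3 of the 4 Exp arrays, and the difference was 0.30 (SE 0.23).

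**Figure D3:**
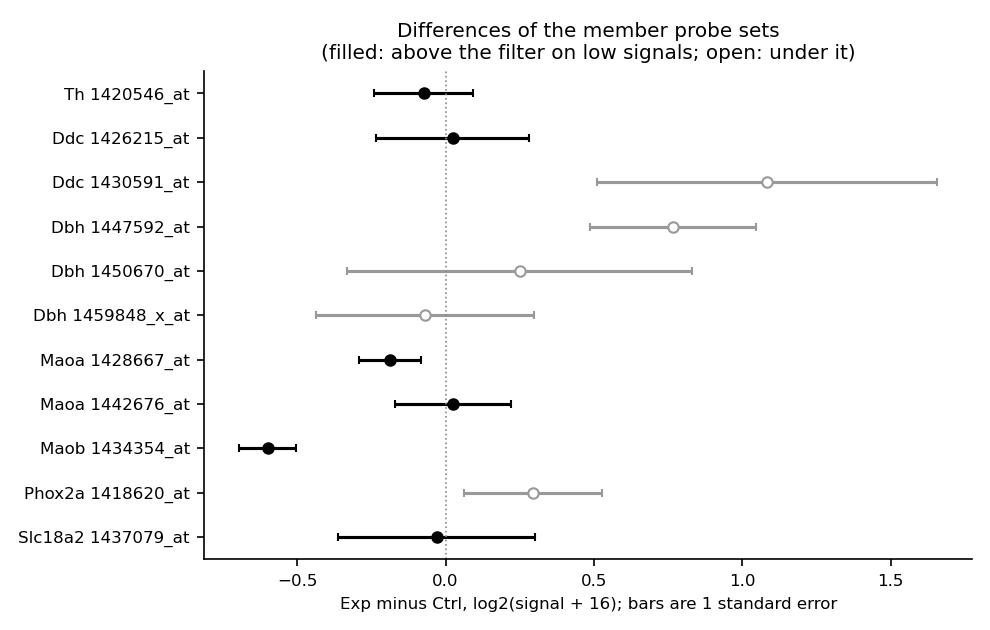
Exp minus Ctrl on the log2(signal + 16) scale (x axis) for the 11 probe sets, with bars of 1 SE, filled points above the filter on low signals and open points under it. Among the filled points Maob at -0.60 lies farthest from 0, and the open points of Ddc (1.08) and Dbh (0.77) have SEs of 0.57 and 0.28.

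Whether the 7 genes varied together from array to array was tested on deviations from the group means, which leave the difference between the groups out. Each gene was represented by its brightest probe set, and the arrays were permuted within groups (all orders, exact, two-sided). Those of Dbh and Phox2a lay under the filter on low signals, which limits what their pairs can show. Of the 21 pairs, 19 had a positive Pearson's r, but 0 passed Benjamini-Hochberg adjustment over the pairs, and 1 had an unadjusted p below 0.05. That pair was Phox2a and Slc18a2, with r = 0.738 (exact permutation p = 0.0434, adjusted p = 0.408, rho = 0.8, exact permutation p = 0.0625, adjusted p = 0.219) and r = 0.681 without the 2 arrays farthest from the median in Phox2a. Maoa and Slc18a2 had r = 0.745 (exact permutation p = 0.0556, adjusted p = 0.408), and Ddc and Slc18a2 had r = 0.7 (exact permutation p = 0.0972, adjusted p = 0.408). Maoa and Maob had r = 0.639 (exact permutation p = 0.142, adjusted p = 0.498, rho = 0.3), and r = 0.364 without the 2 arrays farthest in Maoa. Th and Dbh, the first and last steps to noradrenaline, had r = -0.03 (exact permutation p = 0.891).

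**Figure D4:**
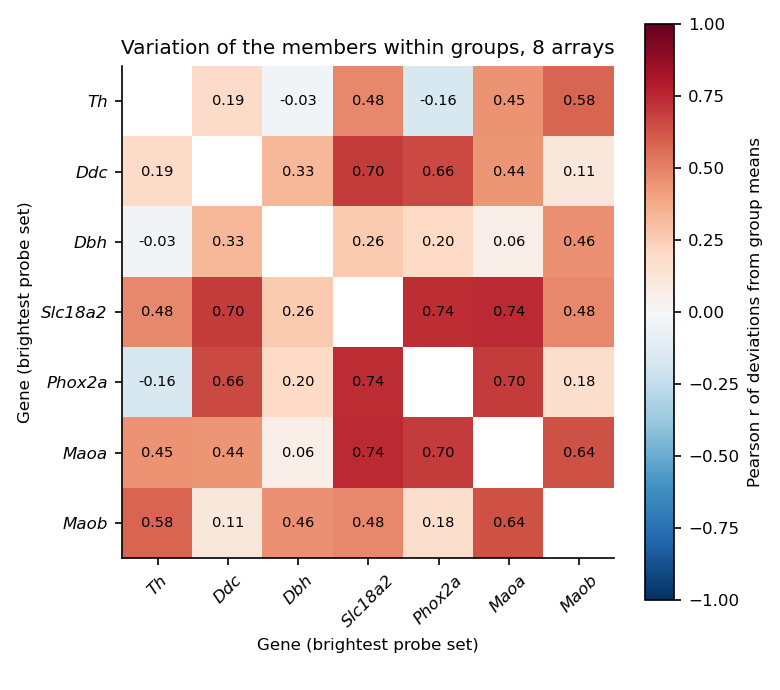
Pearson's r of deviations from the group means over the 8 arrays for each pair of the 7 genes, by colour from -1 (blue) to 1 (red). The highest values, 0.745 and 0.738, join Slc18a2 with Maoa and Phox2a, and none of the 21 pairs passed the adjusted test.

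Among 12762 other genes, each by its brightest tested probe set, those whose deviations from the group means were most like those of Maob were Fos (r = 0.988, rho = 0.786), Cnnm4 (0.983, rho = 0.833), Mfsd13a (0.981, rho = 0.833), Slc43a2 (0.981, rho = 0.929) and Arsg (0.971, rho = 0.881). Each is a description over 8 arrays and the top of a long search. Fos, an immediate early gene, had signals of 1638, 1878, 2321 and 4209 in Exp against 2409, 2481, 2328 and 2162 in Ctrl. Like Maob, it was highest in Exp 4 among the Exp arrays. Without Exp 4 its r with Maob was 0.959, with the group means of all 8 arrays kept. Maob hardly varied over the Ctrl arrays (log2 SD 0.02, against 0.13 over the Exp arrays). Its r values therefore rest mostly on the Exp arrays. Most like Th were Ikzf5 (r = 0.982, rho = 0.976), Hebp2 (0.976, rho = 1), Ppp4r1 (0.976, rho = 0.881), Abcg4 (0.965, rho = 0.976) and Rgs7 (0.961, rho = 0.81).

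Other genes of the pathway were taken from 6 lists of 69 genes, of which 52 had a probe set of their own and 37 were tested with 54 probe sets. By limma, 0 were called in either direction, and 2 had an unadjusted p below 0.05, both lower in Exp, where 4.69% of all tested probe sets had such a p. By their brightest probe sets 11 genes were higher and 26 lower in Exp, with a median difference of -0.06, against a median of -0.01 over all tested probe sets. The 2 with the small unadjusted p were Scg2, a granin of dense-core vesicles, and Hand1, a bHLH factor of the sympathoadrenal lineage. Scg2 had signals of 479, 394, 491 and 535 in Exp against 660, 962, 523 and 521 in Ctrl, a difference of -0.48 (SE 0.21, limma adjusted p = 0.999). Hand1 differed by -0.33 (SE 0.15, limma adjusted p = 0.999).

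Factors of noradrenergic identity had 2 genes higher and 4 lower of 6 tested, with Tfap2b at -0.23 (SE 0.13), Gata2 at -0.20 (SE 0.26) and Insm1 at -0.01 (SE 0.18). Genes of tetrahydrobiopterin, the cofactor of Th, had 1 higher and 5 lower of 6 tested, within -0.06 and 0.02. Among them Gch1, the entry enzyme, differed by -0.03 (SE 0.18), Qdpr, which recycles the cofactor, by -0.04 (SE 0.09) and Pts by -0.05 (SE 0.09). Synthesis partners and granule genes had 1 higher and 8 lower of 9 tested. Pnmt, which forms adrenaline, differed by -0.17 (SE 0.16) in its tested probe set, Chga by -0.08 (SE 0.09), Chgb by -0.10 (SE 0.09), Pcsk1 by -0.23 (SE 0.15) and Cyb561 by -0.23 (SE 0.22). Slc18a1, the vesicular transporter of chromaffin cells, differed by 0.14 (SE 0.18). None of these genes passed limma's test (adjusted p = 0.999 for each).

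Genes of uptake and of breakdown beyond the monoamine oxidases had 5 higher and 5 lower of 10 tested, with a median of -0.003. Slc6a2, the noradrenaline transporter, had 3 tested probe sets, which differed by 0.18 (SE 0.13), 0.24 (SE 0.14) and -0.26 (SE 0.12) and thus pointed both ways. Aldh2, an aldehyde dehydrogenase of mitochondria, differed by -0.14 (SE 0.11) in its brightest probe set and Aldh3a2 by 0.21 (SE 0.13). Renalase, Rnls, differed by -0.34 (SE 0.25). Of the receptors 3 were tested: Adra2c differed by -0.07 (SE 0.22), Drd2 by 0.02 (SE 0.16) and Drd4 by -0.19 (SE 0.21). In serotonin, histamine and melatonin synthesis and breakdown, Tph2 differed by -0.35 (SE 0.19), Aanat by -0.52 (SE 0.27) and Hnmt by 0.01 (SE 0.22). None of these passed limma's test (adjusted p = 0.999 for each).

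Aldh1a1, a cytosolic dehydrogenase that clears dopamine aldehyde and also makes retinoic acid, varied widely, its log2 SD being 2.16 over the Exp arrays and 2.60 over the Ctrl arrays (n = 4 each). Its signals were 44, 256, 39 and 1291 in Exp 1 to 4, against 3768, 48, 1959 and 1325 in Ctrl 1 to 4. It was high in Ctrl 1, Ctrl 3, Ctrl 4 and Exp 4 and low in the other 4 arrays, so the groups overlapped widely. The difference of -2.30 had an SE of 1.39 (limma adjusted p = 0.999).

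**Figure D5:**
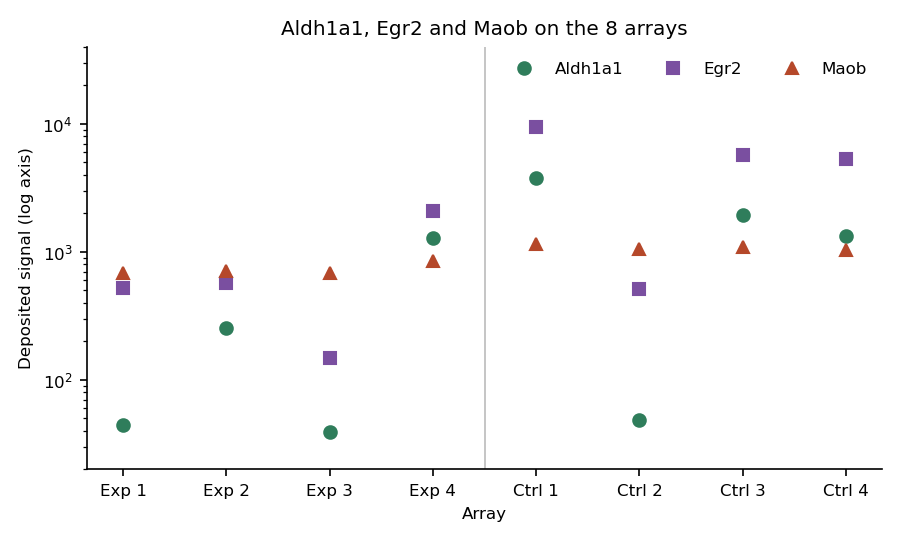
Deposited signal (log y axis) of Aldh1a1 (circles), Egr2 (squares) and Maob (triangles) on the 4 Exp arrays (left) and the 4 Ctrl arrays (right). Aldh1a1 runs from 39 in Exp 3 to 3768 in Ctrl 1, whereas Maob stays between 686 and 1159.

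Markers of other cell types were set beside the monoamine oxidase values. The summed signal of 17 of 18 sympathetic and chromaffin markers ran from 57535 to 60548 in Exp (median 58577). In Ctrl it ran from 61143 to 63499 (median 61953), above all Exp arrays. These sums are of deposited signals before quantile normalization, so the brightest genes weigh most. Among the brightest, Chgb averaged 19860 in Exp and 21410 in Ctrl, and Gal 16270 and 16920. After normalization the groups overlapped in both, with differences of -0.10 (SE 0.09) for Chgb and -0.04 (SE 0.10) for Gal. Of the 15 tested genes of this list, 11 were lower in Exp, with a median difference of -0.16 against -0.01 over all probe sets. Npy, a peptide of sympathetic neurons, had 488, 597, 357 and 848 in Exp against 1089, 675, 927 and 802 in Ctrl, a difference of -0.70 (SE 0.23, limma adjusted p = 0.999). The sum of 11 of 13 Schwann and satellite glia markers ran from 167520 to 197900 in Exp and from 177862 to 210924 in Ctrl, with 10 of 11 lower and a median of -0.24. Fabp7, which was not lower, weighs most in it, averaging 101500 in Exp and 95580 in Ctrl. The sum of 10 of 11 platelet, erythroid and leukocyte markers ran from 113066 to 138940 in Exp and from 103162 to 125630 in Ctrl, with 6 of 9 tested genes lower. Most of that sum is the globin gene Hbb-y, averaging 107000 in Exp and 96820 in Ctrl. Endothelial and mural markers summed to 17934 to 26989 in Exp and 16300 to 24300 in Ctrl, with 2 of 9 tested genes higher and 7 lower and a median of -0.14. Cdh5, the cadherin of endothelial junctions, was among the higher ones by its tested probe set, with mean signals of 990.5 in Exp and 616.3 in Ctrl and a difference of 0.63 (SE 0.10, limma adjusted p = 0.445). Of the epithelial and keratinocyte markers 5 of 6 tested were higher in Exp, with a median of 0.30 and sums of 5107 to 10543 in Exp and 6185 to 6898 in Ctrl. Skeletal muscle markers summed to 57857 in Exp 3, 4928 to 19436 in the other Exp arrays and 6276 to 10090 in Ctrl, with 9 of 10 tested genes higher and a median of 0.61. Without Exp 3 the Maob difference was -0.60. The sum of 16 of 18 sensory neuron markers ran from 483465 to 571438 in Exp and from 494592 to 520166 in Ctrl. Of the 16 tested sensory neuron genes, 8 were higher and 8 lower, with a median of 0.0003. An unadjusted limma p below 0.05 was reached by 3 of 8 tested probe sets in the epithelial list and 3 of 10 in the muscle list. All of these were higher in Exp, as were 1 of 11 in the endothelial and mural list and 1 of 36 in the sensory neuron list. Lower in Exp with such a p were 6 of 21 in the glia list, 2 of 20 in the sympathetic and chromaffin list and 2 of 13 in the platelet, erythroid and leukocyte list. The 6 of the glia list came from Egr2, Mbp, Sox10 and Plekhb1 alone, Egr2 and Mbp each giving more than 1. Over all tested probe sets the share was 4.69%, and 0 in these lists passed adjustment. The ratio of 3' to 5' signal for the actin control transcript, a sign of RNA quality, averaged 4.55 ± 0.12 in Exp and 4.36 ± 0.07 in Ctrl (log2, SD, n = 4 each). On the linear scale it ran from 20.9 in Exp 1 to 25.5 in Exp 2, and from 19.8 in Ctrl 4 to 22 in Ctrl 1. The 3' signal was thus far the stronger on every array, and all Exp arrays but Exp 1 lay above every Ctrl array. No marker of these lists was listed at 0. The part of these markers and of RNA quality in the Maob difference was not tested.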

How the data were processed

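The deposited values are linear probe set intensity values, 1 per probe set and array, in the authors' value table. Their calculation was not given in the sources used here. Per array, the mean deposited signal without the lowest and highest 2% was 2500 on every array, as scaling of each array would give, so differences are relative to the typical probe set. No detection call comes with the values. Groups and numbers came from the titles, and all columns were mapped.

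Signals were taken as log2(signal + 16) and quantile-normalized. The 64 control probe sets and those with a mean under the 40th percentile were left out. The test of Exp against Ctrl used limma 3.58.1 with R 4.3.3 (lmFit, eBayes, two-sided, Benjamini-Hochberg over 27022 probe sets, 5% false discovery rate). Values of the dim probe sets of the 7 genes came from the fit without the filter. A fold is that of signal + 16. The pipeline was tested on simulated data. Figures were drawn with matplotlib 3.10.9.

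Names came from the platform annotation, updated by identifier through RefSeq (GRCm38.p6): of 45037 probe sets 34945 had 1 gene name, 932 several and 9160 none. Probe sets with several names were left unnamed. The brightest probe set of a gene is the one with the highest mean. Genes named are mainly the 7 members, genes set in advance (of which some were not analysed here), up to 4 per list with the smallest p, and the 5 genes most like Maob and Th. Some others, such as X chromosome neighbours, bright markers and Trh, were named outside these rules with their values known. The members, the lists and the rules were chosen with earlier results of these data known. Alternatives were pseudocounts of 1 and 64, a filter at the 60th percentile or none, median centring, values without quantile normalization, the replicate block, the Xist signal as a covariate and leaving out each array.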

Additional observations from a re-analysis of the deposited data

Results flagged for a closer look

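In each group of 4 arrays, each of the 11 probe sets was searched for an extreme value whose distance from the next, as a share of the group's range, passed Dixon's 95% critical value. This met 3 of 22 groups, where chance flags about 1 in 20. The Dbh probe set 1450670_at stood at 5.96 (log2) in Ctrl 1, against 8.42 to 8.74 in the other Ctrl arrays. The Dbh probe set 1459848_x_at stood at 8.31 in Exp 3, against 6.71 to 6.91 in the other Exp arrays. Both lie under the filter on low signals. Maob stood at 10.1 in Ctrl 4, against 10.13 to 10.14 in the other Ctrl arrays, a gap that is wide only beside the narrow spread of that group.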

How the results depend on the processing

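Under 16 alternatives each, the 11 differences moved by less than the spread between arrays. The sign held in all 16 for Maob (-0.66 to -0.56), the brighter Maoa probe set (-0.25 to -0.14), Phox2a (0.19 to 0.48), the dimmer Ddc probe set (0.81 to 1.59) and the Dbh probe set 1447592_at (0.55 to 0.90). It held in 14 for Th, 13 for the brighter Ddc probe set, 11 for Slc18a2, 10 for the dimmer Maoa probe set, 15 for the Dbh probe set 1450670_at and 10 for 1459848_x_at. The single call over all probe sets became 0 without a filter, with a filter at the 60th percentile and with the Xist covariate. Without 1 array the calls ran from 0 to 1, with 1 only without Exp 2. The titles do not say whether same-numbered arrays are paired. Their deviations were correlated by 0.02, 0.05, -0.07 and -0.12, which cannot settle it, since pairing need not leave a correlation over all probe sets. With the replicate block 0 probe sets were called, 0 of the pathway lists, and the Maob difference was -0.60 (SE 0.11). No pathway gene and no pair of the 7 genes was called in any alternative run for it. Dim signals carry no detection call, which limits what Dbh and Phox2a can show.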

Other observations

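Aldh1a1 and Egr2, a transcription factor of myelinating Schwann cells, were high and low on the same arrays. The pair was chosen after its values were seen. Egr2 had signals of 522, 572, 149 and 2098 in Exp 1 to 4, against 9438, 511, 5738 and 5303 in Ctrl 1 to 4. Deviations from the group means had r = 0.954 (exact permutation p = 0.00174, the smallest that the orders within groups can give) and rho = 1 (exact permutation p = 0.00347) over the 8 arrays. Without Ctrl 2 and Exp 3, the arrays farthest from the median in Aldh1a1, r was 0.909, with the group means of all 8 arrays kept. These p-values take no account of how the pair was found.

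Trh, the thyrotropin-releasing hormone precursor, lay under the filter with 199, 360, 17 and 175 in Exp against 352, 325, 382 and 388 in Ctrl, and only Exp 2 reached the Ctrl range. The difference was -1.40 (SE 0.67) and was not tested. Trh was not among the genes set in advance and was named with its values known.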
